A study of Mus musculus with 4 samples.

Results

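The 8 mouse snoRNA host genes Gas5, Snhg1, Snhg3, Snhg5, Snhg6, Snhg8, Snhg12 and Snhg15 were examined for RNA polymerase II (Pol II) peaks in osteoblasts treated with OSS_128167 and in untreated osteoblasts. They were chosen by name, as 8 of the 49943 genes that RefSeq places on the assembled chromosomes of GRCm38.p6. Every peak inside a gene or within 2 kb of its boundaries was taken from both peak lists. The genes were between 785 and 3939 bp long and held 27 annotated snoRNA genes, with 8 in Gas5, 8 in Snhg1, 4 in Snhg12, 2 each in Snhg3 and Snhg5, and 1 each in Snhg6, Snhg8 and Snhg15.

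Small nucleolar RNAs (snoRNAs) guide the chemical modification of ribosomal RNA: box C/D snoRNAs (named Snord) guide 2′-O-methylation, and box H/ACA snoRNAs (named Snora) guide pseudouridylation. In mammals most of them are not transcribed from promoters of their own. They are cut out of the introns of a host transcript made by Pol II, and in the 8 hosts named above the spliced exons are not known to code for a conserved protein. Many hosts, like the genes of ribosomal proteins, begin transcription in a run of pyrimidines (the 5′ terminal oligopyrimidine class) and are transcribed strongly in growing cells.

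Pol II ChIP-seq, in which chromatin fixed to the polymerase is recovered with an antibody and sequenced, was carried out on primary osteoblasts of young mice. The cells were mesenchymal stem cells grown out of bone pieces and then kept for 3 days in osteogenic medium. The treated group was 1 Pol II library from cells given OSS_128167, an inhibitor of the chromatin deacylase SIRT6, and the untreated group was 1 Pol II library whose title names wild-type osteoblasts and no treatment. Each condition also had 1 input library, which was not analysed here. Because the labels enter OSS_128167 as treatment of all 4 samples, the untreated group rests on the titles. The peak file recorded for the treated Pol II library carries SIRT6 in its name rather than OSS_128167, so its assignment rests on the series record, and every value given for OSS_128167 depends on it. No dose or duration of treatment is given in the sources used here, and nothing says how many animals gave the cells of a library.

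Each condition had a single Pol II library (n = 1), so treated and untreated cells could not be tested against each other. The OSS_128167 list held 40748 peaks and the untreated list 1694. The authors' false discovery rate (FDR) was at most 0.05 for 6568 peaks with OSS_128167 and for 109 without it, and it was 1 for 1378 peaks of the untreated list. The median peak was 278 bp long with OSS_128167 and 251 bp without it. Neither list gives a read total; the depth is therefore unknown, and a gene with no listed peak cannot be read as a gene without Pol II. Depth, enrichment and treatment cannot be told apart here, nor can fewer cells of a type and less Pol II per cell. Of 10 osteoblast markers, 5 had a peak with OSS_128167 and 2 without it, beside 40.8% of protein-coding genes with OSS_128167 and 2.45% without it. Col1a2 and Runx2 had one in both lists, Col1a1, Sparc and Sp7 in the OSS_128167 list, and Bglap, Alpl, Dmp1, Ibsp and Spp1 in neither. Of 6 macrophage markers, 4 had a peak with OSS_128167 and 0 without it. Of 4 endothelial markers, 3 had one with OSS_128167 and 0 without it, and of 4 chondrocyte markers 2 had one with OSS_128167 and 0 without it. Of 4 adipocyte markers, 0 had a peak with OSS_128167 and 1, Pparg, without it. Among OSS_128167 peaks with FDR ≤ 0.05, 5 osteoblast, 2 macrophage, 0 endothelial and 1 chondrocyte markers had a peak, beside 13% of protein-coding genes. The part of other cell types in the results was not tested.

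The sequences around the annotated starts are shown because peaks of the OSS_128167 list began at or near several of these starts. Each is the RefSeq sequence of GRCm38.p6 from 50 bases before the start to 50 bases from it on, read 5′ to 3′ on the strand of the gene. Capitals mark a run of at least 6 A or T that begins 40 to 20 bases before the start, where a TATA box lies, and the longest run of at least 4 C or T that touches the bases from 3 before the start to the sixth base of the transcript. Both features were chosen after the sequences had been seen. For Gas5 the downstream of the annotated starts is shown, since the window at the other lies in the gene Zbtb37. The promoter table used here holds 7 of the 8 genes, all except Snhg6.
Gas5, chr1:161035116-161035215, plus strand: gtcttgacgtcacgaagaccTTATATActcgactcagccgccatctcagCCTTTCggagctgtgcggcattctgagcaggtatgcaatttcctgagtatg
Snhg1, chr19:8723437-8723536, plus strand: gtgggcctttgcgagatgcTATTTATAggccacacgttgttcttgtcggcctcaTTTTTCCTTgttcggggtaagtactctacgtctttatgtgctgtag
Snhg3, chr4:132353637-132353736, minus strand: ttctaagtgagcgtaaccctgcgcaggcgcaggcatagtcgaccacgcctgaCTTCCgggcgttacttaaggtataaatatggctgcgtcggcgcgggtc
Snhg5, chr9:88522848-88522947, minus strand: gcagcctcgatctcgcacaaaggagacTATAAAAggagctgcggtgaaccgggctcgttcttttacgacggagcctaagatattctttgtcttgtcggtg
Snhg8, chr3:123508287-123508386, minus strand: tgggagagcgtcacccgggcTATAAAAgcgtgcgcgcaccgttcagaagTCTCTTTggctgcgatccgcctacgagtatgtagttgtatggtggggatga
Snhg12, chr4:132308628-132308727, plus strand: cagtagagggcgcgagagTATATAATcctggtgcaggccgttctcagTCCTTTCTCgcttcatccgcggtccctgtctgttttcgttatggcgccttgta
Snhg15, chr11:6528711-6528810, minus strand: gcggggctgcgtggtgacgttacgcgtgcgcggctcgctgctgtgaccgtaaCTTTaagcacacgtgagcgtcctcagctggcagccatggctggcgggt

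A run of A and T stood before the start in 5 of the 7 genes, namely Gas5, Snhg1, Snhg5, Snhg8 and Snhg12. The same run stood in 15.5% of all 32851 starts of the table. A run of at least 4 pyrimidines touched the window defined above around the start in 6 of the 7 genes, against 43.9% of all starts. Runs of at least 6 pyrimidines were present in Gas5, with 6, Snhg8, with 7, and Snhg1 and Snhg12, with 9 each, against 18.8% of all starts. The pyrimidine run included the annotated start itself in Gas5, Snhg8 and Snhg12. It began at base 3 of the annotated transcript in Snhg3 and Snhg15 and at base 5 in Snhg1. Gas5, Snhg1, Snhg8 and Snhg12 held both features, which 7% of all starts did, or 2.97% where the pyrimidine run had to be at least 6 long. Snhg3 and Snhg15 had no such A and T run, and Snhg5 had no such pyrimidine run.

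Over the longer window from 250 bases before to 50 after the start, 6 motifs were searched on both strands. TATAAA was present in Snhg1, Snhg3, Snhg5 and Snhg8, and in 13.6% of all starts. In Snhg3 the match printed above lies after the start. GCCATNT, a core of YY1 sites, was present in Gas5 and Snhg3 and in 15.1% of all starts. TGACGTC, the core of cAMP-response elements, was present in Gas5 and Snhg15 and in 3.21% of all starts. CTTTCC was present in Gas5 and Snhg8 and in 26.6% of all starts. CCGGAAG, a core of ETS-family sites, was present in Snhg3 and in 8.86% of all starts. CACGTG, the E-box that MYC can bind, was present in Snhg15 and in 7.15% of all starts. TATAAA on either strand can overlap the A and T run in capitals, and in Snhg3 the CCGGAAG match, read on the other strand, overlaps the pyrimidine run. These are matches of letters and not measured binding.

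In treated cells, a peak covered the annotated start of Gas5, Snhg1, Snhg3, Snhg5 and Snhg12, which is 5 of the 7 starts shown. Among all 32851 starts, 425 lay in a peak of that list, or 1.29%. The starts of Snhg8 and Snhg15 were not covered, and neither was the upstream start of Gas5, which is not among the 7. The peaks began close to the start: 21 bases before it in Snhg1, 36 in Snhg3, 36 in Snhg12, 109 in Snhg5 and 99 before the start shown for Gas5. In untreated cells, 0 of the 7 starts lay in a peak, and 4 of all starts did, or 0.0122%.

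In OSS_128167-treated cells, all 8 host genes had at least 1 peak within 2 kb, with 14 peaks in all, against 25.6% of all genes, 19.1% of long noncoding genes and 8.82% of the 3197 long noncoding genes of the same length range (785 to 3939 bp). With FDR ≤ 0.05, 10 peaks at all 8 genes were left, against 7.52% of all genes and 2.35% of long noncoding genes of that length range. With FDR ≤ 0.01, 5 of the 8 genes had a peak, against 3.54% of all genes. Without OSS_128167, 2 of the 8 genes had a peak, Gas5 and Snhg1, with 3 peaks in all, against 1.53% of all genes and 0.313% of long noncoding genes of that length range. With FDR ≤ 0.05 the untreated list had 0 peaks at the 8 genes, against 0.0981% of all genes. The exact 95% interval, which covers counting error only, is 63.06% to 100% for 8 of 8 genes and 3.185% to 65.09% for 2 of 8. The genes were chosen by name and not drawn at random, from 1 library per condition. The interval therefore says nothing about other host genes, other libraries or the conditions. The 14 peaks of the OSS_128167 list were 226 to 5082 bp long, with a median of 1109 bp, and 8 of them were longer than 1000 bp. The 3 untreated peaks were 274, 319 and 422 bp long, and each lay wholly inside a peak of the OSS_128167 list.

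**Figure D1:**
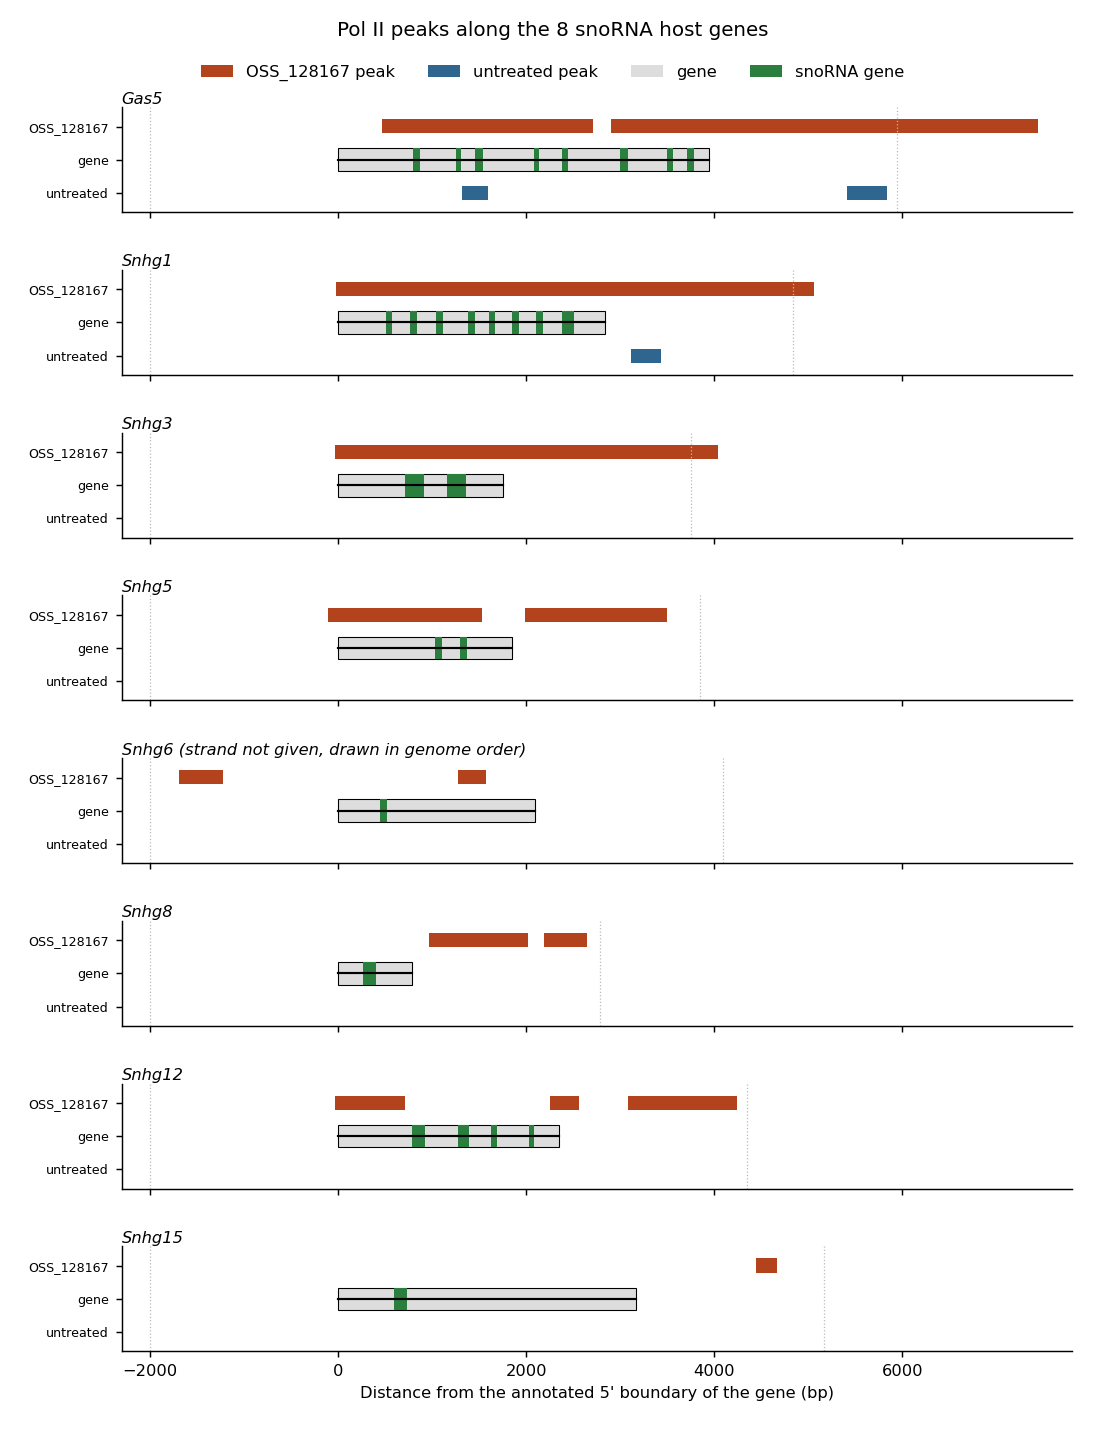
Peaks of the OSS_128167 list (upper bar of each panel) and of the untreated list (lower bar) along each host gene, as distance in bp from the annotated 5′ boundary, with snoRNA genes marked inside the gene. OSS_128167 peaks span all of Snhg1 and Snhg3 and most of Gas5 and Snhg5, while the untreated list shows 3 short peaks, 2 at Gas5 and 1 at Snhg1; dotted lines lie 2 kb outside each gene.

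The 8 genes comprised 4 covered along most of their length, 2 touched in part and 2 with peaks outside them only. With OSS_128167, peaks covered 100% of Snhg1 and of Snhg3, 83.2% of Gas5 and 82.6% of Snhg5. They covered 34.6% of Snhg12, 13.99% of Snhg6 and 0% of Snhg8 and Snhg15. Peaks thus touched 6 of the 8 genes, beside 20.2% of all genes. Without treatment, peaks covered 6.96% of Gas5 and 0% of the other 7 genes, and 1.26% of all genes were touched. The median covered share of the 8 genes was 58.6% with OSS_128167 and 0% without it, and the median of all genes was 0% in both. At least 50% of the length was covered in 4 of the 8 genes in the OSS_128167 list. That degree of cover was met by 0.679% of all genes, 0.313% of long noncoding genes of the same length range and 1.56% of protein-coding genes of that length range. None of the 8 genes met it without OSS_128167, and 0.01% of all genes did.

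**Figure D2:**
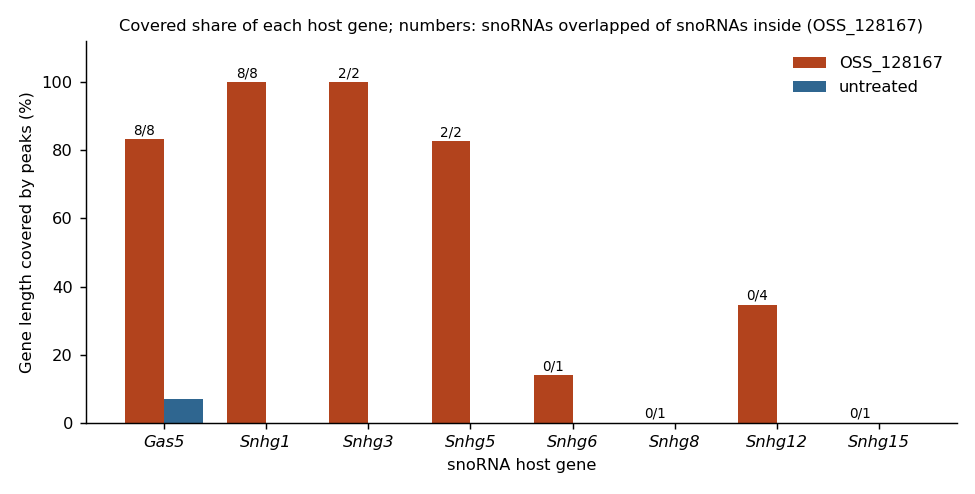
Share of each host gene's length covered by peaks (%), with the OSS_128167 list left of the untreated list, and above each pair the number of snoRNAs overlapped in the OSS_128167 list of those inside the gene. Snhg1 and Snhg3 reach 100%, Gas5 and Snhg5 lie above 80% (83.2% and 82.6%), and in the untreated list Gas5 alone has a bar, at 6.96%.

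Snhg1 hosts Snord22, a box C/D snoRNA needed for processing of ribosomal RNA, and 7 further snoRNAs. The gene lies on the plus strand of chromosome 19, from 8723487 to 8726326 (GRCm38), and is 2840 bp long. In treated cells, 1 peak of 5082 bp, from 8723466 to 8728547, took in the whole gene, all 8 snoRNAs and 2221 bp past the 3′ boundary. Its fold enrichment over background was 8.3, its FDR 1.8e-18 and its pileup 32, all the authors' values. It had rank 35 by length and rank 57 by fold among the 40748 peaks of that list. In untreated cells, the gene itself was not touched, and 1 peak of 319 bp began 276 bp past its 3′ boundary, with a fold of 3.101 and FDR 1. Upstream, the peak of the OSS_128167 list stopped short of Slc3a2, the heavy chain of amino acid transporters, which runs the other way from 117 bp before Snhg1.

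Gas5, named for its high level in growth-arrested cells and known in human cells as a decoy of the glucocorticoid receptor, lies on the plus strand of chromosome 1 from 161034601 to 161038539. It has 8 annotated transcripts and 8 snoRNAs, of which Snord47 is the seventh from the 5′ end. In OSS_128167-treated cells, 2 peaks covered 3277 of its 3939 bp. The first, of 2244 bp from 161035067, had a fold of 7.993 and an FDR of 1.98e-15, and held 5 snoRNAs. It began 466 bp after the upstream annotated start and 99 bp before the start shown above, so the part of Gas5 that overlaps the zinc-finger gene Zbtb37 was not covered. The second, of 4537 bp from 161037507, had a fold of 5.124 and an FDR of 3.03e-07, held the last 3 snoRNAs and ran 3504 bp past the 3′ boundary. A peak has no strand, so wherever a peak also reaches another gene, the signals of the genes cannot be told apart.

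Without OSS_128167, Gas5 had a peak of 274 bp over snoRNA 3 from the 5′ end, with a fold of 3.05 and FDR 1. A further untreated peak of 422 bp lay 1471 bp past its 3′ boundary, with a fold of 3.476 and FDR 1. Gas5 was thus the one host gene whose body was touched in the untreated list, by a peak that did not pass an FDR of 0.05.

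Snhg3 hosts Snora73a and Snora73b, the H/ACA snoRNAs also called U17, which act in the cleavage of the ribosomal RNA precursor. It lies on the minus strand of chromosome 4 from 132351933 to 132353686. With OSS_128167, 1 peak of 4071 bp, from 132349652 to 132353722, covered the whole gene and 2281 bp past its 3′ boundary, with a fold of 4.212 and an FDR of 0.00111. It had rank 53 by length in that list and rank 1051 by fold. Without treatment, Snhg3 had 0 peaks. No other gene lies under the OSS_128167 peak.

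Snhg5, a host of 2 snoRNAs, lies on the minus strand of chromosome 9 from 88521052 to 88522897. In treated cells, a peak of 1634 bp, from 88521373 to 88523006, had a fold of 8.205, an FDR of 1.93e-13 and both snoRNAs inside it, and it ended 321 bp short of the 3′ boundary. A second peak of 1515 bp lay 137 bp beyond the 3′ boundary, with a fold of 2.928 and FDR 0.155. In untreated cells, Snhg5 had 0 peaks.

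Snhg12 hosts Snora16a, Snora44, Snora61 and Snord99, and lies on the plus strand of chromosome 4 from 132308678 to 132311024. In OSS_128167-treated cells, its first peak, of 752 bp from 132308642, covered the first 716 bp of the gene, with a fold of 4.513 and an FDR of 0.000213. That peak ended 71 bp before Snora16a. A peak of 310 bp lay across the 3′ boundary with an FDR of 0.227, and 1 of 1165 bp lay 733 bp past it with a fold of 4.416 and an FDR of 0.000537. The last of these overlaps Trnau1ap, a gene for a selenocysteine-tRNA-associated protein that runs toward Snhg12 and ends 738 bp from it, so signal of both genes cannot be told apart there. Without OSS_128167, Snhg12 had 0 peaks.

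Snhg6, Snhg8 and Snhg15 each hold 1 snoRNA, and none of the 3 was overlapped in either list. Snhg6, on chromosome 1 from 9942025 to 9944118, shares 1582 bp with Mcmdc2, a gene of meiotic recombination. With OSS_128167, Snhg6 held a peak of 293 bp with an FDR of 0.284, and a peak of 469 bp with an FDR of 0.0405 lay 1223 bp outside it, both within Mcmdc2. Snhg8, on the minus strand of chromosome 3 from 123507552 to 123508336, had peaks 181 and 1404 bp past its 3′ boundary in the OSS_128167 list, of 1053 and 460 bp, with FDRs of 0.155 and 0.0205. Both overlap Prss12, the gene of the protease neurotrypsin, which runs toward Snhg8 and ends 949 bp from it. Without peaks that overlap another gene, 6 of the 8 hosts had a peak in the OSS_128167 list, Snhg6 and Snhg8 being lost. Snhg15, on the minus strand of chromosome 11 from 6525591 to 6528760, had 1 peak in the OSS_128167 list, of 226 bp with an FDR of 0.0323, lying 1268 bp past its 3′ boundary. Without treatment, Snhg6, Snhg8 and Snhg15 had 0 peaks.

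In treated cells, peaks overlapped 20 of the 27 snoRNAs, and each of the 20 was covered whole by a peak with FDR ≤ 0.05. Beside them, peaks overlapped 4.78% of all 1340 snoRNA genes, and 3.58% with FDR ≤ 0.05. The 20 were all 8 of Gas5, all 8 of Snhg1, both of Snhg3 and both of Snhg5. The other 7 were Snord87 of Snhg6, Snora24 of Snhg8, the 4 of Snhg12 and the 1 of Snhg15. Within Snhg12 the snoRNAs lay between the first peak and the peak at the 3′ boundary, with gaps of 71 bp for Snora16a, 559 bp for Snora44 and for Snora61, and 169 bp for Snord99. In untreated cells, 1 of the 27 snoRNAs, number 3 of Gas5, was overlapped, beside 0.149% of all snoRNA genes. The exact 95% interval is 53.72% to 88.89% for 20 of 27 and 0.09373% to 18.97% for 1 of 27. Because snoRNAs under 1 peak are not independent and the hosts were chosen by name, it says nothing about other snoRNAs, other libraries or the conditions.

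Among other snoRNAs, the OSS_128167 list overlapped 7 of 312 that lie in other long noncoding genes and 29 of 446 that lie in protein-coding genes. The 8 hosts thus held 20 of the 64 snoRNAs that it overlapped in the genome, and the untreated list overlapped 2. Of the other long noncoding genes, Snhg14 alone holds 206 annotated snoRNAs, and OSS_128167 peaks covered 0.341% of its length. The total of 312 therefore rests largely on 1 gene, which says nothing about where the 7 lie. Another of these genes, 2410006H16Rik, holds 3 snoRNAs and was covered by 100% in the OSS_128167 list. Within the 8 hosts, peaks of the OSS_128167 list covered 71.2% of the snoRNA bases and 53.7% of the other bases. Peaks of the untreated list covered 3.38% of the snoRNA bases and 1.17% of the other bases. In the 4 hosts with overlapped snoRNAs, the bases outside the snoRNAs were covered too: the OSS_128167 peaks covered 100% of Snhg1 and of Snhg3, 80.3% of Gas5 and 81.1% of Snhg5. Snhg12 and Snhg6 went the other way, with 41.1% and 14.5% of the other bases covered and 0% of the snoRNA bases. Neither kind of base was covered in Snhg8 and Snhg15.

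The cover of the host genes was uneven about their ends. Strand is known for 7 of the 8, and in all 7 the OSS_128167 peaks covered more of the 2 kb past the 3′ boundary than of the 2 kb before the 5′ boundary. That was so for 2464 of the 27025 genes with a known strand (9.12%) and for 81 long noncoding genes of the same length range (3.44%). These shares include genes without a peak on either side. The reverse, more cover before the 5′ boundary, was so for 896 of the 27025 genes and for 83 of those long noncoding genes. The 2 kb past the 3′ boundary was covered by 100% in Gas5, Snhg1 and Snhg3, 75.8% in Snhg5, 75.7% in Snhg8, 68.9% in Snhg12 and 11.3% in Snhg15. The 2 kb before the 5′ boundary was covered by 5.45% in Snhg5, 1.8% in Snhg3 and in Snhg12, 1.05% in Snhg1 and 0% in Gas5, Snhg8 and Snhg15. Without OSS_128167, 2 of the 7 were covered more past the 3′ boundary, Gas5 with 21.1% and Snhg1 with 16.0% of those 2 kb. Neither had an untreated peak before its 5′ boundary. In that list 59 of all genes with a known strand met the rule (0.218%), and the reverse was so for 44. The cover past Gas5, Snhg8 and Snhg12 includes bases of other genes, among them Prss12 and Trnau1ap, whose part was not tested.

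**Figure D3:**
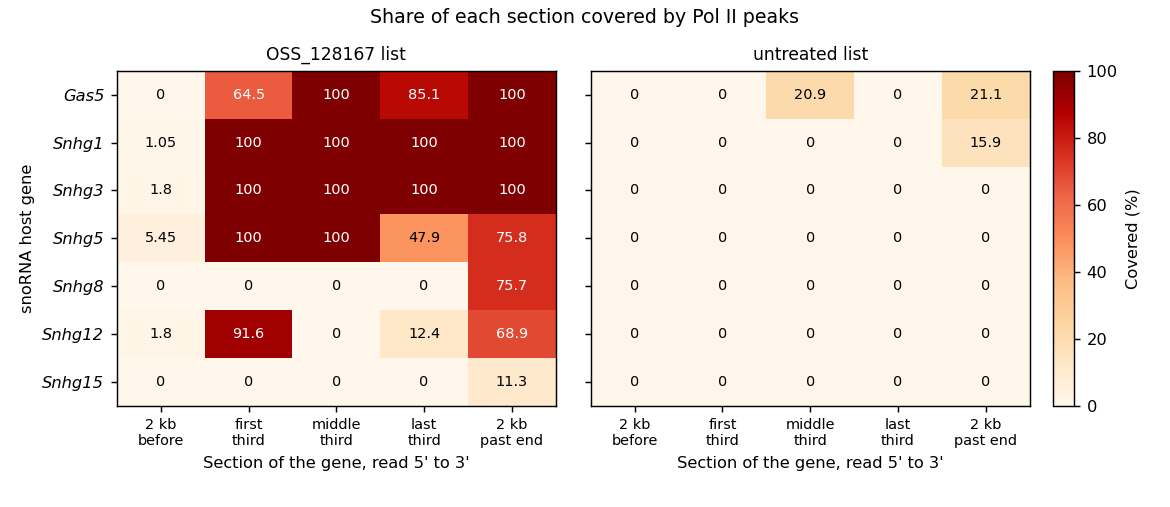
Share of each section covered by peaks (%) for the 7 host genes with a known strand, read 5′ to 3′, with the OSS_128167 list left and the untreated list right. In the OSS_128167 panel the column past the 3′ end is filled in all 7 genes (11.3% to 100%) and the column before the 5′ end reaches at most 5.45%; in the untreated list 3 cells are above 0.

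The distance reached past the 3′ boundary differed among the hosts. At 500 bp past it, the OSS_128167 list had a peak over 5 of the 7 genes, and at 1000 and 1500 bp over 6, all but Snhg15. The positions at 1000 and 1500 bp past Gas5, Snhg8 and Snhg12 lie in other genes, whose part was not tested. At 2000 bp the 3 genes Gas5, Snhg1 and Snhg3 were covered, at 3000 bp Gas5 and Snhg1, and at 5000 bp Gas5. The host peaks themselves stopped at 2221 bp past Snhg1 and 3504 bp past Gas5, so the positions at 3000 bp past Snhg1 and at 5000 bp past Gas5 lie in further peaks. Without treatment, Snhg1 was covered at 500 bp and Gas5 at 1500 bp. Averaged over the 7 hosts, cover in the OSS_128167 list was 11.5% of the last 250 bp before the 5′ boundary, 57.1% of the first of 10 equal bins of the gene, 48.8% of the last of them and 89.8% of the bin that begins 1250 bp past the 3′ boundary. In 2353 long noncoding genes of the same length range the same averages were 1.14%, 1.5%, 0.75% and 0.991%. At Gas5, Snhg8 and Snhg12 the bin that begins 1250 bp past the 3′ boundary also lies in other genes.

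**Figure D4:**
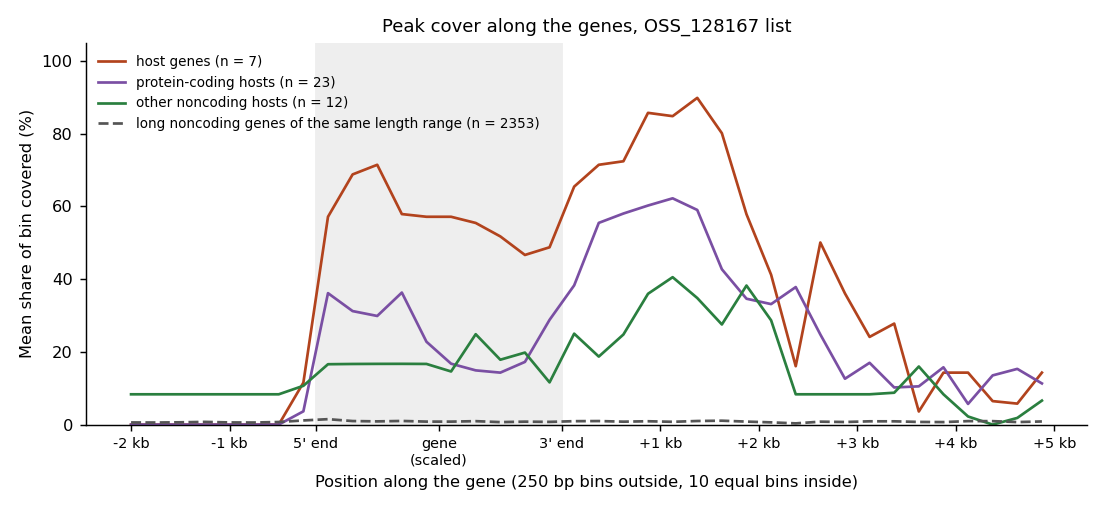
Mean share of each bin covered by OSS_128167 peaks (%) from 2 kb before the 5′ end to 5 kb past the 3′ end, with the gene scaled to 10 bins and 250 bp bins outside it; lines are the 7 host genes with a known strand, 23 protein-coding hosts, 12 other noncoding hosts and 2353 long noncoding genes of the same length range. The line of the host genes stays near 0 until the 5′ end and is highest past the 3′ end, at 89.8%.

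The other named noncoding hosts included 2 covered along most of their length, Snhg9 and Zfas1. Of 14 such genes, 9 had a peak within 2 kb with OSS_128167 and 0 without it, beside 19.1% of long noncoding genes with OSS_128167 and 0.896% without it. Among OSS_128167 peaks with FDR ≤ 0.05 the count was 7, beside 4.04% of long noncoding genes. With OSS_128167, Snhg9 was covered by 100%. It lies wholly inside Rps2 on the other strand, and the same peak of 4223 bp covers both, so their signals cannot be told apart. Zfas1, host of 3 snoRNAs, was covered by 69.3% with OSS_128167, but by 0% with FDR ≤ 0.05. Snhg7 followed with 22.4%, Epb41l4aos with 20.04%, Snhg17 with 14.5% and Snhg4 with 10.4%, and the list median was 0.171%. Snhg10, Snhg11, Snhg16, Snhg20 and Rian had no peak in either list. By the annotation alone, 100 long noncoding genes other than the 8 hold a snoRNA, 12 of the 14 named hosts among them. Of the 100, 50 had a peak with OSS_128167 and 3 without it, and 26 had an OSS_128167 peak with FDR ≤ 0.05. Their median length was 25510 bp, against 8429 bp for all long noncoding genes, and the part of length in these counts was not tested. Without the 12 named hosts, 41 of the other 88 had an OSS_128167 peak. At least 50% of the length was covered in 4 of these 88 in the OSS_128167 list, beside 0.181% of all long noncoding genes. Among the 88, 2410006H16Rik, a gene of 1930 bp with 3 snoRNAs, was covered by 100% in the OSS_128167 list, under a peak of 7655 bp with a fold of 5.294.

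A chosen list of 32 protein-coding hosts was made up mostly of genes of ribosomal proteins and translation factors. Of the 32, 28 had a peak within 2 kb with OSS_128167 and 1, Rpl23, without it. These counts stand beside 40.8% of all protein-coding genes with OSS_128167 and 2.45% without it. Among OSS_128167 peaks with FDR ≤ 0.05 the count was 22, beside 13% of all protein-coding genes. The median covered share in the OSS_128167 list was 16.1%, with 85.6% of Rps2, 80.9% of Eif4a2, 80.8% of Rpl3, 78.4% of Rps20, 63.0% of Rpl7a and 61.2% of Eif4a1. With FDR ≤ 0.05 the cover was 46.98% of Eif4a2 and 47.4% of Rps20. The number of the 32 covered along at least 50% of their length was then 3, beside 0.553% of all protein-coding genes. Over all OSS_128167 peaks that number was 7, beside 0.681% of all protein-coding genes. Of the 23 with a known strand, 18 had more cover past the 3′ boundary than before the 5′ boundary in the OSS_128167 list. By the annotation, 372 protein-coding genes hold a snoRNA, of which 273 had a peak within 2 kb with OSS_128167 and 22 without it. Their median length was 59760 bp, against 17170 bp for all protein-coding genes, and the part of length in these counts was not tested. Their median cover with OSS_128167 was 0.389%. At least 50% of the length was covered in 9 of the 372, beside 0.681% of all protein-coding genes. Of the 372, 302 had a known strand. More cover past the 3′ boundary than before the 5′ boundary was found in 67 of the 302 (22.2%). It was found in 2174 of all protein-coding genes with a known strand (12.4%). The reverse was so for 7 of the 302 and for 591 of all protein-coding genes with a known strand. Of 18 genes whose proteins bind or assemble snoRNA particles (snoRNP genes), 7 had a peak with OSS_128167 and 0 without it, beside 40.8% of protein-coding genes with OSS_128167 and 2.45% without it. Nop56, a core protein of box C/D particles that is itself a host of 5 snoRNAs, had the highest cover of that list, at 46.3%, and the median was 0%. The difference between these lists was not tested.

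**Figure D5:**
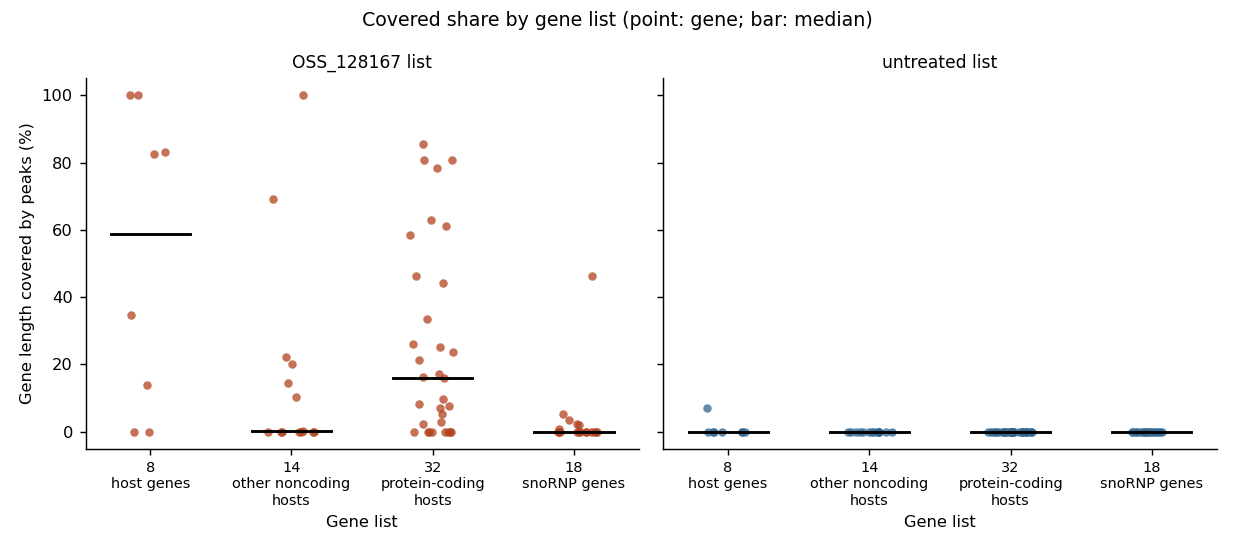
Share of gene length covered by peaks (%) for the 8 host genes, 14 other noncoding hosts, 32 protein-coding hosts and 18 snoRNP genes, with the OSS_128167 list left and the untreated list right; points are genes and bars are medians. The medians in the OSS_128167 list are 58.6%, 0.171%, 16.1% and 0%, and in the untreated list Gas5 is the one gene above 0%.

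Among noncoding genes of the same length range, the 3 nearest to the median of the 8 hosts in covered share over both lists (by Euclidean distance) were Gm46732, Zfas1 and Particl. In treated cells, they were covered by 61.3%, 69.3% and 46.9%, and in the untreated list by 0% each. Zfas1 holds 3 annotated snoRNAs, and Gm46732 and Particl hold 0.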

How the data were processed

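Pol II peak lists of 1 OSS_128167 and 1 untreated library were analysed; the inputs were not analysed here. The submitters' processing notes name fastp, BWA and mm10. Which program called the peaks, with which thresholds and with what use of the inputs, is not given in the sources used here, nor is the handling of reads shared by near-identical copies. Per the file headers, each deposited row holds a peak's position, length, p-value and FDR, its pileup (a height of signal) and its enrichment over background (fold, a ratio). These are the authors' values, and they served only to describe, rank or filter peaks within 1 list. The largest deposited p-value was 0.00999 with OSS_128167 and 0.00956 without it. Read depth is unknown.

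Gene boundaries came from RefSeq (GRCm38.p6, the assembly of mm10) and strand from the RefSeq promoter table; exon positions were not used here, so snoRNAs were those wholly inside a host's boundaries. All symbols of the other lists matched. 1 neighbouring gene is not reported here. A peak belonged to a gene if at least 1 bp lay inside it or within 2 kb, and covered share used the union of peaks. Background shares used the same rules. Exact (Clopper-Pearson) 95% intervals cover counting error only and do not extend beyond the genes and libraries counted. No test between conditions was possible. The 8 genes, the other gene lists and the rules were chosen with earlier results of these data known. Named were all 8 hosts, up to 6 genes per other list by covered share with OSS_128167, genes sharing a peak with a host, and the 3 nearest noncoding genes; other neighbours, genes without a peak and Rpl23 were named after their values were seen. Alternatives changed the window, the FDR, the overlap rule and the use of shared peaks. Calculations used numpy 2.4.6, pandas 2.3.3 and scipy 1.17.1 under Python 3.11.15, and plots matplotlib 3.10.9. Tested on simulated data, the interval counts differed from a direct search in 0 of 300 windows.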

Additional observations from a re-analysis of the deposited data

How the results depend on the processing

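With OSS_128167 the number of host genes with a peak was 8, and 6 with no window, 7 at 1 kb, 8 at 5 kb, by peak centre and with FDR ≤ 0.05, 6 without peaks that overlap another gene and 5 with FDR ≤ 0.01. Without OSS_128167 it was 2, and 1 with no window and 0 with FDR ≤ 0.05 or ≤ 0.01. The covered share of the summed length of the 8 genes was 55.9% with OSS_128167; it was 53.9% with FDR ≤ 0.05 or ≤ 0.01, 42.9% with boundaries widened by 2 kb and 53.7% outside snoRNAs. Untreated peaks covered 1.46%, and 0% with FDR ≤ 0.05 or ≤ 0.01, 2.0% with widened boundaries and 1.17% outside snoRNAs. Overlapped snoRNAs numbered 20 with OSS_128167 under each overlap rule and with FDR ≤ 0.05, and 22 with 500 bp added to each side. Untreated, they numbered 1, with 0 for FDR ≤ 0.05 and 4 with 500 bp added. The stricter FDR admits fewer peaks, and the windows and the snoRNA rule change the bases counted, by construction. No paired analysis was possible because each condition has 1 library. Unknown depth limits what an absent peak can show.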
